A study of Danio rerio with 18 samples.

Results

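The beta globins of the zebrafish embryo, the beta-like chains of haemoglobin, were followed over time in control embryos and in embryos injected against cardiac troponin T2. The set comprised 4 genes, the embryonic beta globins hbbe1.1, hbbe2 and hbbe3 and the beta globin hbba1, which counts as adult by its name. Members were taken by gene, whatever their values: every probe set whose deposited description led to one of the 4 genes was used. These were 4 of the 2273 genes that could be named, with 6 of the 15617 probe sets on the Affymetrix zebrafish array, 3 for hbbe1.1 and 1 for each of the other genes.

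Haemoglobin joins alpha-like and beta-like globin chains around haem, the iron-holding ring that binds oxygen. Vertebrates switch between sets of globin genes during life, and in zebrafish the first, primitive red cells enter the circulation carrying embryonic globins. The alpha-like and beta-like genes of zebrafish lie side by side in shared clusters. Embryos that lack cardiac troponin T, a part of the contractile apparatus of heart muscle, form red cells but have no heartbeat to move them, and zebrafish at these stages can live on oxygen taken up by diffusion.

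Every embryo came from the AB wild-type strain and was injected at the 1-cell stage. Control embryos received a control morpholino, and morphants received one directed at tnnt2, the gene of cardiac troponin T2. Morpholinos are stable antisense molecules that block an RNA's translation or splicing. Whole-embryo RNA was taken at 36, 48 and 60 h of development, with 3 arrays for each of the 6 groups. The titles list the controls as wild type where the protocol has a control morpholino, and 1 protocol gives a slightly earlier first time. Embryos from several parent pairs were pooled. Nothing states that the arrays of a group stem from independent clutches or injections, and the p-values then cover only array-to-array spread. In RNA from whole embryos, fewer red cells and less globin RNA per red cell cannot be told apart.

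The deposited values are expression values taken as log2, since no file names the base. The array medians ran from 1.19 to 3.86, with the lowest in control array 2 at 60 h (1.19) and control array 1 at 36 h (1.48). Morphant medians averaged 0.30 above the control medians at 36 h, -0.69 relative to them at 48 h and 0.50 above them at 60 h. Brightness also shifted between times, with control medians from 3.72 to 3.86 at 48 h and from 1.19 to 2.45 at 60 h. On deposited values, changes between times cannot be told apart from such shifts. Values are therefore given as deposited and after quantile normalisation, in which each array receives the same distribution of values. Differences, standard errors and p-values are from limma on the normalised values of all 18 arrays, over 11626 probe sets, with a Benjamini-Hochberg adjusted p under 0.05 as the threshold. All 6 beta globin probe sets were bright enough to be tested.

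In the RefSeq gene order hbbe3 and hbbe2 are neighbours, flanked by the alpha-like genes hbae4 and hbae5. The genes hbba1 and hbbe1.1 lie on another chromosome, among adult and embryonic alpha-like and beta-like genes, with hbbe1.2 and hbbe1.3 as the nearest embryonic beta-like relatives of hbbe1.1. The probe set of hbbe3 (DrAffx.2.19.S1_at) was designed on a partial coding sequence. The probe sets were far apart in brightness, which describes the probes and is not a ranking of the genes. The hbbe1.1 probe set DrAffx.1.85.S1_s_at, of the kind that detects several near-identical transcripts, ranked from 2 to 13 by brightness among 15502 probe sets on every array. The hbbe3 probe set ranked between 96 and 792, that of hbbe2 (DrAffx.2.15.S1_at) between 187 and 1365, and that of hbba1 between 6646 and 12888.

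**Figure D1:**
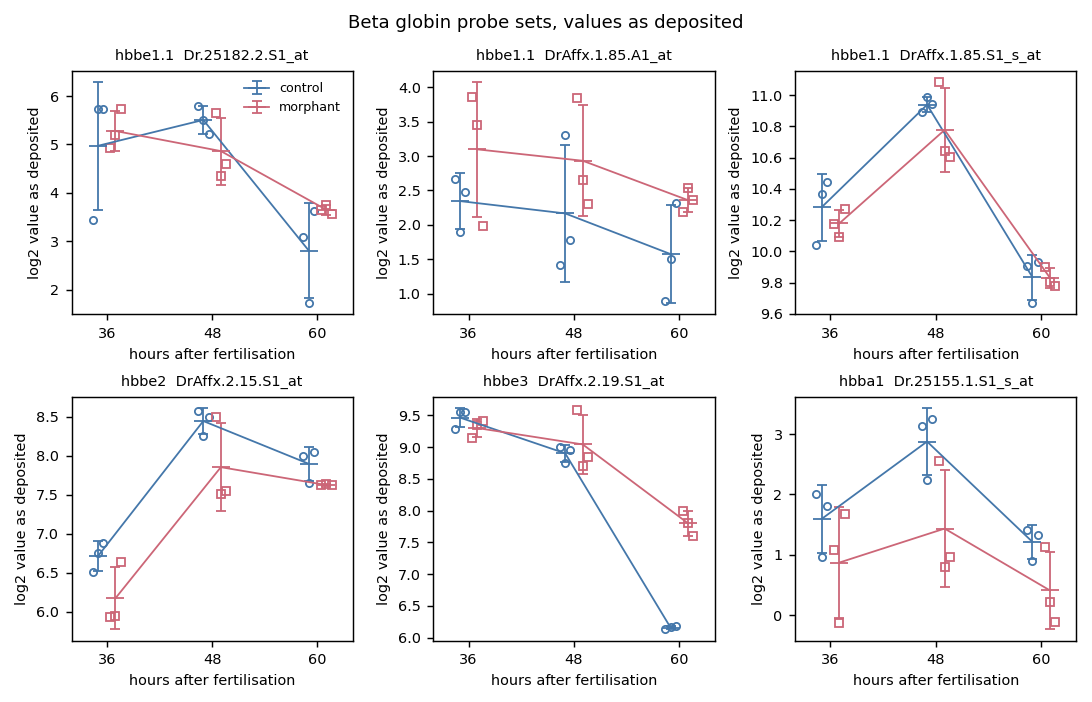
Deposited log2 values of the 6 beta globin probe sets against hours after fertilisation. Open symbols are arrays, horizontal ticks with bars are the mean and SD of 3 arrays, blue is control and red is morphant, and each panel has its own vertical scale. At 60 h the control arrays of hbbe3 lie between 6.13 and 6.19 and the morphant arrays between 7.6 and 8.0.

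The embryonic beta globin hbbe3 fell through the time course in control embryos and fell less in morphants. At 36 h its deposited log2 values were 9.29, 9.55 and 9.55 in the controls and 9.14, 9.34 and 9.42 in the morphants. At 48 h they were 9.0, 8.75 and 8.96 in the controls and 9.58, 8.71 and 8.84 in the morphants. The groups overlapped at both times. At 60 h the values were 6.13, 6.16 and 6.19 in the controls and 8.0, 7.80 and 7.6 in the morphants, and every morphant array lay above every control array. The normalised values were apart too, as those of 20.2% of all tested probe sets were at that time.

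After normalisation the hbbe3 level in controls was 9.34 ± 0.06 at 36 h, 8.24 ± 0.12 at 48 h and 6.80 ± 0.43 at 60 h (mean ± SD, n = 3 arrays). The morphant levels were 9.26 ± 0.11, 8.71 ± 0.10 and 8.30 ± 0.11. The spread of the 60 h controls came from array 2, the dimmest array of all, on which hbbe3 stood at 7.30 after normalisation against 6.56 and 6.53 on the other two, although the deposited values were nearly equal.

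In control embryos hbbe3 fell by 2.54 ± 0.15 (SE) on the log2 scale from 36 to 60 h, a 5.82-fold decrease, with the smallest p-value of all 11626 probe sets in that comparison (limma adjusted p = 1.25e-08). Both steps passed the test, with a fall of 1.09 ± 0.15 from 36 to 48 h (limma adjusted p = 1.02e-04) and of 1.45 ± 0.15 from 48 to 60 h (limma adjusted p = 2.57e-05). In morphants the fall from 36 to 60 h was 0.96 ± 0.15, a 1.95-fold decrease (limma adjusted p = 2.82e-04). Its first step, -0.55 ± 0.15, passed the test (limma adjusted p = 0.0175), and its second, -0.41 ± 0.15, did not (limma adjusted p = 0.176). The fall from 36 to 60 h in controls passed under every alternative tried, whereas that of the morphants was lost when each array was only centred on its median (-0.91 ± 0.38, limma adjusted p = 0.172). The controls' first step was lost on the values as deposited (-0.56, limma adjusted p = 0.0760) and their second on median-centred values (-0.85, limma adjusted p = 0.0973). The first step of the morphants was lost on deposited values (-0.26, limma adjusted p = 0.804), on median-centred values (-0.36, limma adjusted p = 0.600), without the intensity trend (limma adjusted p = 0.0537) and without morphant array 2 of 36 h or of 48 h (limma adjusted p up to 0.0779). Their second step was past the threshold on deposited values (-1.24, limma adjusted p = 0.00611), without the 2 dimmest arrays (-0.40, limma adjusted p = 0.0171) and without control array 2 of 60 h alone (limma adjusted p = 0.0489).

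**Figure D2:**
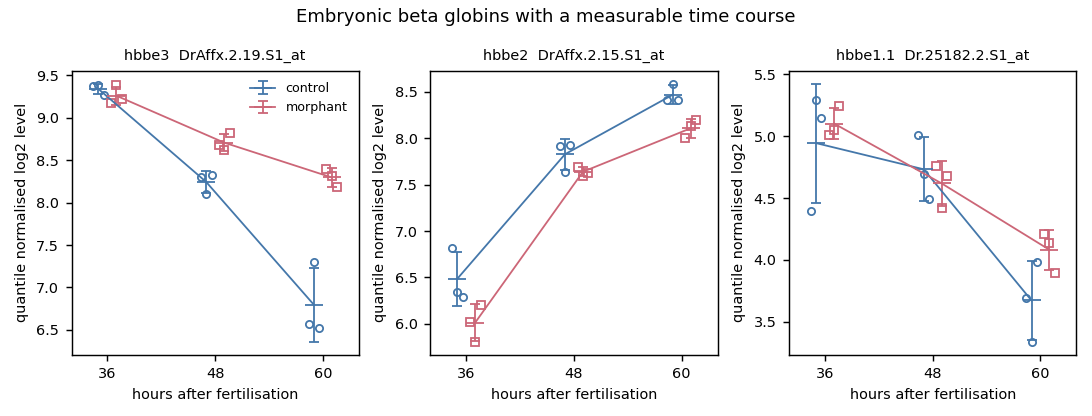
Quantile normalised log2 levels of hbbe3, hbbe2 and the intermediate hbbe1.1 probe set against hours after fertilisation. Open symbols are arrays, ticks with bars are the mean and SD of 3 arrays, blue is control and red is morphant, and the vertical scales differ. The control line of hbbe3 drops to 6.80 at 60 h while the morphant line stays at 8.30, and both lines of hbbe2 rise.

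Between the 2 kinds of embryo, hbbe3 did not differ past the threshold at 36 h, with a difference of -0.08 ± 0.15 (limma adjusted p = 0.826). Its deposited values at 36 h lay 0.89 to 1.18 log2 units below the brightest probe set of the array. Whether this brightness narrowed the 36 h difference was not tested. At 48 h the normalised levels were 8.31, 8.10 and 8.32 in controls and 8.68, 8.62 and 8.82 in morphants, without overlap, as for 24.9% of all tested probe sets at that time. The difference of 0.46 ± 0.15 missed the threshold (limma adjusted p = 0.198). It passed in a fit of the 6 arrays of that time (limma adjusted p = 0.0155), without the 2 dimmest arrays (0.45 ± 0.09, limma adjusted p = 0.0124) and without control array 2 of 60 h alone (limma adjusted p = 0.0312). At 60 h hbbe3 was 2.83-fold higher in morphants, a difference of 1.50 ± 0.15 with a 95% interval from 1.19 to 1.81 (limma adjusted p = 7.66e-05). The interval rests on the spread pooled over all 6 groups. The controls of 60 h alone had a wider spread, with an SD of 0.43 against 0.11 in the morphants of 60 h.

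Of the 6 beta globin probe sets, hbbe3 alone passed at 60 h, where 0.92% of all tested probe sets did (0.68% higher and 0.241% lower), and none passed at 36 h or 48 h, where 0.181% and 0.568% did. At an unadjusted p under 0.05 there were 1 at 36 h (hbbe2), 2 at 48 h (hbbe3 and the hbbe1.1 probe set DrAffx.1.85.A1_at) and 3 at 60 h (hbbe3, hbbe2 and hbba1), where 13.2%, 10.3% and 17.8% of all tested probe sets were. The 60 h difference of hbbe3 kept its call without each array in turn (1.36 to 1.74). It was 1.64 ± 0.22 on the values as deposited (limma adjusted p = 0.00194), where hbbe3 was the 1 call among all probe sets at that time, and 1.73 ± 0.10 without the 2 dimmest arrays (limma adjusted p = 1.27e-08). On median-centred values it was 1.14 ± 0.38 and lost the call (limma adjusted p = 0.203).

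The difference between morphants and controls itself changed with time for hbbe3. It was larger at 60 h than at 36 h by 1.58 ± 0.21 (limma adjusted p = 0.00615), and this was the single call among 11626 probe sets, or 0.0086%. This contrast was not tested under the alternatives. The joint test over the 3 times passed as well (limma adjusted p = 0.0179), where 0.0258% of probe sets passed. The increase from 48 to 60 h alone, 1.04 ± 0.21, did not pass (limma adjusted p = 0.170). The joint test was lost on deposited values (1.81, limma adjusted p = 0.106), on median-centred values (1.60, limma adjusted p = 0.624) and without the intensity trend (limma adjusted p = 0.205). It was also lost without any one of 6 arrays, which were control array 1 and morphant arrays 1 and 2 of 48 h and the same arrays of 60 h (limma adjusted p up to 0.0607).

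The neighbouring gene hbbe2, which also encodes an embryonic beta globin, rose from 36 h to the later times in both kinds of embryo, while hbbe3 fell. From 48 to 60 h it rose after normalisation only, and its deposited means fell. Its deposited log2 values at 36 h were 6.51, 6.75 and 6.88 in controls and 5.93, 5.95 and 6.64 in morphants. At 48 h they were 8.58, 8.26 and 8.50 in controls and 8.50, 7.51 and 7.55 in morphants. At 60 h they were 8.0, 7.65 and 8.04 in controls and 7.62, 7.63 and 7.62 in morphants. The arrays of 36 h lay below all arrays of the later times, and morphant and control arrays overlapped at 36 h and 48 h.

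Normalised hbbe2 levels were 6.48 ± 0.29, 7.83 ± 0.16 and 8.47 ± 0.10 in controls and 6.01 ± 0.20, 7.64 ± 0.05 and 8.11 ± 0.10 in morphants at the 3 times (mean ± SD, n = 3 arrays). From 36 to 60 h hbbe2 rose 3.96-fold in controls (1.99 ± 0.14 on the log2 scale, limma adjusted p = 5.89e-08) and 4.27-fold in morphants (2.10 ± 0.14, limma adjusted p = 2.44e-08). The step from 36 to 48 h passed in controls (1.34 ± 0.14, limma adjusted p = 9.02e-06) and in morphants (1.63 ± 0.14, limma adjusted p = 6.01e-07). The control step was lost on median-centred values (0.64, limma adjusted p = 0.150).

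The later step, from 48 to 60 h, was 0.64 ± 0.14 in controls (limma adjusted p = 0.00307) and 0.47 ± 0.14 in morphants (limma adjusted p = 0.0973). Its direction rested on the scaling, since on the deposited values hbbe2 stood lower at 60 h than at 48 h, by -0.55 in controls (limma adjusted p = 0.0702) and -0.23 in morphants (limma adjusted p = 0.550). The morphant step passed without the 2 dimmest arrays (0.47 ± 0.10, limma adjusted p = 0.0171) and without control array 1 of 36 h alone (limma adjusted p = 0.0218). No change with time in the morphant difference of hbbe2 passed the joint test (limma adjusted p = 0.822), and the difference at 60 h minus that at 36 h had a 95% interval from -0.29 to 0.51.

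The morphants' hbbe2 level was lower than the controls' by small amounts. The normalised levels did not overlap at 36 h or 60 h, a separation that 13.9% and 20.2% of all tested probe sets showed at those times. The differences were -0.47 ± 0.14 at 36 h (limma adjusted p = 0.213), -0.19 ± 0.14 at 48 h (limma adjusted p = 0.770) and -0.36 ± 0.14 at 60 h (limma adjusted p = 0.200). The first passed without control array 3 of 36 h (limma adjusted p = 0.0468) and the last without control array 1 of 36 h (limma adjusted p = 0.0491).

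Averaged over the 3 times, hbbe2 was 1.27-fold lower in morphants (-0.34 ± 0.08, limma adjusted p = 0.0206) and hbbe3 1.55-fold higher (0.63 ± 0.09, limma adjusted p = 4.02e-04). These were 2 of the 6 beta globin probe sets, in a comparison where 4.81% of all tested probe sets passed, 2.35% lower and 2.46% higher. Both calls were lost on deposited values (limma adjusted p = 0.551 for hbbe2 and 0.132 for hbbe3) and on median-centred values (limma adjusted p = 0.134 and 0.188). That of hbbe2 was also lost without the intensity trend (limma adjusted p = 0.0591).

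**Figure D3:**
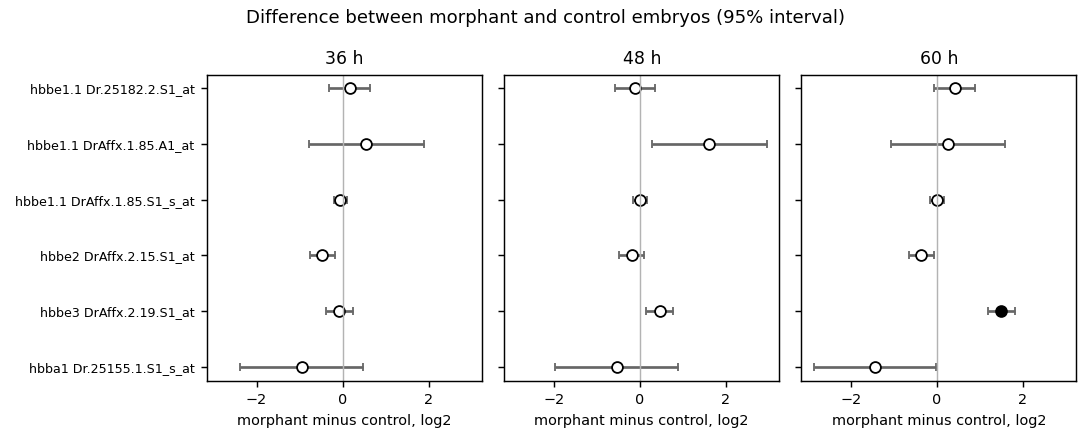
Difference between morphant and control embryos on the normalised log2 scale for the 6 beta globin probe sets at each time. Points are the difference of the means of 3 arrays, bars are 95% intervals, and filled points passed the test over 11626 probe sets. The points of DrAffx.1.85.S1_s_at at 48 h and 60 h are 0 by construction of the normalisation, and their bars are no measure of hbbe1.1. The bar of this probe set at 36 h pools the same fixed values. The single filled point is hbbe3 at 60 h, at 1.50.

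The contrast between the neighbours hbbe2 and hbbe3 can be read within each array, where a scaling by 1 factor per array cancels. The deposited log2 value of hbbe2 minus that of hbbe3 was -2.78, -2.80 and -2.67 in the controls of 36 h and -3.21, -3.39 and -2.78 in the morphants. At 48 h it was -0.42, -0.49 and -0.46 in controls and -1.07, -1.2 and -1.30 in morphants. At 60 h it was 1.87, 1.48 and 1.86 in controls and -0.38, -0.17 and 0.02 in morphants. The groups overlapped at 36 h and were apart at 48 h and 60 h, with the morphants lower.

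The mean within-array value was therefore lower in morphants by 0.37 at 36 h, 0.73 at 48 h and 1.91 at 60 h. Averaged over the times on normalised values, hbbe2 minus hbbe3 responded with -0.97 (two-sided exact permutation test over 8000 relabellings within times, p = 5e-04, adjusted p = 0.0075 over the 15 pairs of beta globin probe sets). On the deposited values this was -1.01 (exact permutation test, adjusted p = 0.0100). The 60 h values that enter it include the hbbe3 difference given above.

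Of the 15 pairs, 8 differed in response past the threshold. The pairs reuse 6 probe sets, and the share among pairs of other probe sets was not computed, so the count is not particular to globins. It was between 5 and 9 when each array was left out in turn, with 5 without morphant array 1 or 2 of 36 h, control array 3 of 48 h or morphant array 1 of 48 h. In 5 of the pairs, 2 of them past the threshold, 1 side was the hbbe1.1 probe set DrAffx.1.85.S1_s_at, whose normalised value was the same on 12 arrays. Such a pair repeats the difference of its other member and says nothing of hbbe1.1. Of the remaining 10 pairs 6 passed, 3 of them with the dim hbba1, whose differences are too uncertain to give a size. The pairs of DrAffx.1.85.A1_at with hbbe2 and with hbba1 passed too, but its strand could not be settled. Without these probe sets, the called pairs were hbbe2 minus hbbe3 and the intermediate hbbe1.1 probe set minus hbbe2 (exact permutation test, adjusted p = 0.0275). The latter was lost without the 2 dimmest arrays (exact permutation test, adjusted p = 0.05175).

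**Figure D4:**
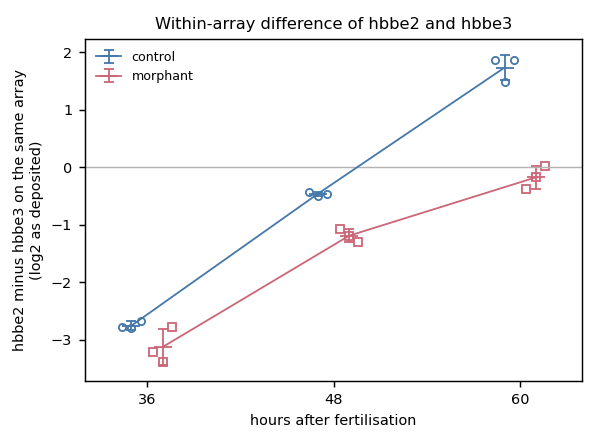
Deposited log2 value of hbbe2 minus that of hbbe3 on the same array against hours after fertilisation. Open symbols are arrays, ticks with bars are the mean and SD of 3 arrays, blue is control and red is morphant. The controls climb from -2.75 to 1.74 and the morphants from -3.13 to -0.17.

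The 3 probe sets of hbbe1.1, an embryonic beta globin with close copies in the genome, gave 3 different pictures. DrAffx.1.85.S1_s_at stood within 0.01 to 0.24 log2 units of the brightest probe set of its array. Its deposited values were 10.04, 10.37 and 10.44 in the controls of 36 h and 10.17, 10.10 and 10.27 in the morphants. At 48 h they were 10.89, 10.99 and 10.94 in controls and 11.09, 10.64 and 10.60 in morphants. At 60 h they were 9.90, 9.67 and 9.93 in controls and 9.90, 9.81 and 9.78 in morphants. Morphant and control arrays overlapped at every time, and the changes between times ran with the brightest value of each array.

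On all 12 arrays of 48 h and 60 h this probe set ranked 3, so that normalisation gave it the same value, 10.32, on each of them. Differences at 48 h and 60 h were therefore 0.00 by construction, and at 36 h -0.05 ± 0.08 (limma adjusted p = 0.768). The standard error at 36 h pools the spread of all groups, including the SD of 0 that normalisation gave at 48 h and 60 h. The SDs at 36 h were 0.21 in controls and 0.05 in morphants. A change of hbbe1.1 at this brightness could not be measured with these values.

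The probe set of hbbe1.1 with intermediate brightness, ranked between 2003 and 6493, fell with time. Its deposited log2 values were 3.44, 5.74 and 5.73 in the controls of 36 h and 4.92, 5.19 and 5.72 in the morphants. At 48 h they were 5.80, 5.51 and 5.21 in controls and 5.65, 4.35 and 4.59 in morphants. At 60 h they were 3.08, 1.72 and 3.62 in controls and 3.63, 3.76 and 3.56 in morphants. The low values among the controls of 36 h and 60 h belonged to the 2 dimmest arrays, and morphants and controls overlapped at every time, as deposited and normalised.

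Its normalised level fell by 1.27 ± 0.22 from 36 to 60 h in controls, a 2.42-fold decrease (limma adjusted p = 6.96e-04), and by 1.02 ± 0.22 in morphants, a 2.03-fold decrease (limma adjusted p = 0.00526). On deposited values the control fall was 2.16 ± 0.55 (limma adjusted p = 0.0166) and the morphant change was -1.63 ± 0.55, past no threshold (limma adjusted p = 0.133). The step from 48 to 60 h passed in controls (-1.06 ± 0.22, limma adjusted p = 0.00303). In morphants the steps were -0.48 ± 0.22 from 36 to 48 h (limma adjusted p = 0.154) and -0.54 ± 0.22 from 48 to 60 h (limma adjusted p = 0.243), and the first passed without the 2 dimmest arrays (limma adjusted p = 0.0347). Morphants minus controls came to 0.16, -0.11 and 0.41 at the 3 times, each ± 0.22 (limma adjusted p = 0.757, 0.959 and 0.341).

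The changes between times share arrays with each other and with the differences between morphants and controls. Over them, 3 of the 6 beta globin probe sets (hbbe3, hbbe2 and the intermediate one of hbbe1.1) passed from 36 to 60 h in each kind of embryo, against 18% of all tested probe sets in controls and 11.8% in morphants. From 36 to 48 h hbbe3 and hbbe2 passed in both, against 22.6% and 15.7%. From 48 to 60 h the same 3 probe sets as from 36 to 60 h passed in controls, against 26.4%, and none did in morphants, against 0.955%. For that step in morphants all 3 of them had an unadjusted p under 0.05, as 16.1% of all tested probe sets did.

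The third hbbe1.1 probe set, DrAffx.1.85.A1_at, carries the manufacturer's mark for the orientation opposite to that of DrAffx.1.85.S1_s_at. Which strand it measures could not be settled from the files, so its values are not read as hbbe1.1 mRNA. Its deposited values at 48 h were 1.41, 3.3 and 1.78 in controls and 3.84, 2.66 and 2.30 in morphants, which overlap. After normalisation the 48 h groups were apart, as those of 24.9% of all tested probe sets were, with a difference of 1.62 ± 0.64 (limma adjusted p = 0.339). No difference between morphants and controls passed the test for it, and its values spanned 0.90 to 3.86 over the 18 arrays.

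The beta globin hbba1 was dim throughout. The deposited standard errors of its values, from 0.62 to 1.77 on the log2 scale, were as large as most of its differences. Its only probe set is also of the kind that detects several near-identical transcripts. Which transcripts were detected was not tested, so the values may not be those of hbba1 alone. Its deposited values were 2.01, 0.96 and 1.82 in the controls of 36 h and 1.07, -0.13 and 1.67 in the morphants. At 48 h they were 3.13, 2.24 and 3.26 in controls and 2.56, 0.79 and 0.96 in morphants, and at 60 h 1.42, 0.89 and 1.33 in controls and 1.13, 0.21 and -0.11 in morphants. The morphant mean lay below the control mean at each time, and the groups overlapped at each time as deposited and normalised.

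The normalised hbba1 differences were -0.95, -0.54 and -1.44 at the 3 times, each ± 0.68, and none passed (limma adjusted p = 0.525, 0.924 and 0.277). Their average was -0.98 ± 0.39 with a 95% interval from -1.80 to -0.16 (limma adjusted p = 0.132). None of its changes with time passed on normalised values. On deposited values it stood lower at 60 h than at 48 h in controls by -1.66 (limma adjusted p = 0.0306), against 0.40 ± 0.68 after normalisation (limma adjusted p = 0.687), so the direction rested on the scaling.

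Among other globins found by description, 4 probe sets for 3 genes, the dim adult alpha globin hbaa1 lay lower in morphants on average. The dim hbba1 probe set, which may detect more than hbba1, lay lower by nearly the same average amount. The hbaa1 difference was -0.98 ± 0.30 and did not pass (limma adjusted p = 0.0607). Of 2 zeta-like alpha globin probe sets, both near the top of the array, the one shared by several transcripts was lower by 0.15 ± 0.04 on average (limma adjusted p = 0.0279) and the other differed by -0.06 ± 0.04 (limma adjusted p = 0.308). The call was lost under every other scaling, filter-free and trend-free fit (limma adjusted p = 0.0737 to 0.717) and in 9 of 18 fits without 1 array, with the difference below 0 in each. The adult beta globin hbba2 had a mean of -4.44 and was too dim to test.

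Genes of haem synthesis, which supply the ring that globins carry, were represented by 5 tested members of 15. On average over the times 1 was higher in morphants and 4 did not pass, where 2.46% of all tested probe sets passed as higher. The median difference was 0.14 against 0.01 over all tested probe sets. The one higher in morphants was urod, which encodes uroporphyrinogen decarboxylase, an enzyme of the haem pathway, by 0.69 ± 0.12 (limma adjusted p = 0.00276). At 60 h urod was higher in morphants by 1.13 ± 0.20 (limma adjusted p = 0.0167). On deposited values both calls were lost (0.66 on average, limma adjusted p = 0.673, and 1.62 at 60 h, limma adjusted p = 0.562). The 60 h call was also lost in the fit of its 6 arrays (limma adjusted p = 0.124) and without control array 2 or morphant array 3 of 60 h (limma adjusted p up to 0.0756). The others averaged 0.44 for the mitochondrial iron importer slc25a37, -0.23 for uros, 0.14 for alas2, the red cell form of the first enzyme of the pathway, and -0.09 for alas1. Of these slc25a37 was dim, with group means from -0.13 to 1.50 and SDs up to 2.20.

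The urod level fell with time. In controls it was 5.05 ± 0.04, 3.31 ± 0.24 and 2.78 ± 0.32, and in morphants 5.22 ± 0.18, 4.06 ± 0.17 and 3.91 ± 0.29 (normalised mean ± SD, n = 3 arrays). It fell by 2.27 ± 0.20 from 36 to 60 h in controls (limma adjusted p = 6.99e-07) and by 1.32 ± 0.20 in morphants (limma adjusted p = 2.75e-04). The change of the urod difference with time did not pass the joint test (limma adjusted p = 0.596).

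Of 19 genes of the red cell membrane and red cell enzymes 7 were tested. On average 6 did not pass and 1 was higher in morphants (median 0.09), beside the same 2.46%. It was epb41b, which encodes protein 4.1 of the membrane skeleton, with a difference of 1.17 ± 0.26 (limma adjusted p = 0.0184) and of 2.20 ± 0.45 at 60 h (limma adjusted p = 0.0311). Its control level at 60 h was 0.82 ± 1.25, too dim to fix a fold. On deposited values both calls were lost (1.17, limma adjusted p = 0.645, and 2.65, limma adjusted p = 0.562). The 60 h call was also lost without the intensity trend (limma adjusted p = 0.0613), in the fit of its 6 arrays (limma adjusted p = 0.173) and without control array 1 or 2 or morphant array 2 or 3 of 60 h (1.48 to 2.66, limma adjusted p up to 0.179). The spectrin gene sptb averaged 0.48 ± 0.15 (limma adjusted p = 0.0715), the anion exchanger slc4a1a 0.11, the carbonic anhydrase cahz 0.09, catalase (cat) -0.28 and hbp1 0.06.

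Of 20 erythroid regulators 11 were tested. On average 1 was higher in morphants and 10 did not pass (median 0.05), beside 2.46% of all tested probe sets. The transcription factor gene sox6, which in mice takes part in silencing an embryonic globin, was higher in morphants by 0.46 ± 0.13 (limma adjusted p = 0.0460). The call was lost in 15 of 18 fits without 1 array (0.38 to 0.54, limma adjusted p up to 0.0980), on deposited values (limma adjusted p = 0.813), on median-centred values (limma adjusted p = 0.0562), without the intensity trend (limma adjusted p = 0.0676) and without the 2 dimmest arrays (limma adjusted p = 0.101). Its difference was 0.95 ± 0.22 at 36 h (limma adjusted p = 0.108), 0.21 at 48 h and 0.22 at 60 h, each ± 0.22. The dim erythroid factor gene klf1 averaged 1.24 ± 0.56 (limma adjusted p = 0.175), nfe2 0.65 ± 0.37, klf3 0.33, gata2a -0.26 and e2f4 0.24.

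Of a list of 10 red cell markers 6 were tested (alas2, gata1a, slc4a1a, cahz, epb41b and sptb). At 60 h 1 of them passed, epb41b at 2.20, and the others were 0.02 for gata1a, 0.10 for alas2, 0.44 for slc4a1a, 0.44 for cahz and 0.58 for sptb. Their mean log2 level per array ran from 3.85 to 4.36 in controls and from 4.71 to 4.78 in morphants at 60 h, from 4.29 to 4.64 and from 4.63 to 4.87 at 48 h, and from 4.76 to 4.86 and from 4.86 to 5.02 at 36 h. The groups did not overlap at 60 h, and the dim epb41b had the largest difference of the 6. Of single probe sets 20.2% did not overlap at that time, and the share for means of 6 genes was not computed. The defining markers alas2, slc4a1a and cahz had control levels of 5.75, 6.55 and 6.15 at 60 h, and the part of the red cell markers in the hbbe3 result was not tested.

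Myeloid markers, 5 tested of 8, ran from 3.44 to 3.62 in controls and from 2.97 to 3.28 in morphants at 60 h. Endothelium markers, 4 of 6, ran from 2.76 to 2.99 and from 2.37 to 2.89. Heart muscle markers, 3 of 4, ran from 3.21 to 3.75 and from 3.26 to 4.19. Of the 3 heart muscle markers 1 passed as higher at 60 h and 2 did not (median 0.54, from -0.31 to 0.68), beside 0.68% of all tested probe sets. On average 1 passed as higher and 2 did not (median 0.06, from -0.12 to 0.45), beside 2.46%. The marker that passed was the heart muscle gene myl7, a myosin light chain, higher in morphants by 0.68 ± 0.15 at 60 h (limma adjusted p = 0.0453) and by 0.45 ± 0.09 on average (limma adjusted p = 0.00906). Its 60 h call was lost on deposited values (1.01, limma adjusted p = 0.779), on median-centred values (0.51, limma adjusted p = 0.155), without the intensity trend (limma adjusted p = 0.0799), in the fit of its 6 arrays (limma adjusted p = 0.158) and in 13 of 18 fits without 1 array (limma adjusted p up to 0.220). Its average call was lost on deposited values (limma adjusted p = 0.813). Of the 5 myeloid markers 1 passed as lower at 48 h and 4 did not pass, where 0.568% of all tested probe sets passed. Their median difference at 48 h was 0.18, from -2.36 to 0.32. On average 1 passed as lower and 4 did not (median -0.34, from -1.17 to 0.05), beside 2.35% of all tested probe sets. The myeloid gene cebp1 was lower by -2.36 ± 0.44 at 48 h (limma adjusted p = 0.0194) and by -1.07 ± 0.26 on average (limma adjusted p = 0.0236), and at 60 h its difference was -0.14 ± 0.44 (limma adjusted p = 0.888). Its 48 h call was lost on deposited values (limma adjusted p = 0.0652), on median-centred values (limma adjusted p = 0.0584) and without any 1 of the 48 h control arrays or morphant array 2 of 48 h (limma adjusted p up to 0.0782). Its average call was lost on deposited values (limma adjusted p = 0.483), without the 2 dimmest arrays (limma adjusted p = 0.0660) and without control or morphant array 2 of 60 h (limma adjusted p up to 0.0571).

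None of the 2 thrombocyte markers had a named probe set, and the part of these cells in the hbbe3 result was not tested.

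By correlation of normalised levels over the 18 arrays, the named non-globin genes most like hbbe3 were urod (Pearson r = 0.89), dla (0.88) and foxn4 (0.86). Those most like hbbe2 were snap25b (0.97), ckbb (0.97) and lmo4a (0.96). For the dim hbba1 they were tubb4b (0.84), epb41l4a (0.82) and foxc1a (0.79). The arrays are shared by all these genes and fall into 6 groups that differ in time. None are given for hbbe1.1, whose brightest probe set had 1 normalised value on 12 of the 18 arrays.

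In the authors' deposited table, made from values combined over replicates, hbbe3 at 60 h had a log2 ratio of morphant over control of 1.69 with a standard deviation of 0.13 and a probability of a positive ratio of 1. At 48 h the authors' deposited table gave hbbe3 a log2 ratio of 0.00 and a probability of 0.537, and at 36 h -0.02 and 0.340. For hbbe2 the authors' deposited table gave -0.26, -0.21 and -0.04 at the 3 times, with probabilities of 0.0808, 0.138 and 0.295. The dim hbba1 had log2 ratios of -0.33, -0.07 and -0.02 there, with probabilities of 0.278, 0.393 and 0.435. Its limma differences were -0.95, -0.54 and -1.44. The authors' separate combined values of the time course lay further apart than these ratios for both genes. They put hbba1 at 1.83, 2.88 and 1.59 in controls and at 0.84, 1.43 and 0.82 in morphants. For hbbe2 they were 6.76, 8.44 and 7.93 in controls and 6.21, 7.85 and 7.67 in morphants. The intermediate hbbe1.1 probe set had log2 ratios of 0.00, -0.07 and 0.08 in the authors' deposited table, with probabilities of 0.519, 0.303 and 0.725. For DrAffx.1.85.S1_s_at the authors' deposited table gave a probability of 0.500 at 60 h, and for DrAffx.1.85.A1_at a log2 ratio of 0.89 with a probability of 0.999 at 36 h, where the limma difference of 0.54 ± 0.64 did not pass (limma adjusted p = 0.703).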

How the data were processed

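Per the deposited readme, the authors estimated expression with the puma package (version not given in the sources used here), and the file names give mmgMOS. The deposited values and their standard errors were taken as log2, the scale mmgMOS returns, since no file names the base. The authors also deposited combined log2 values, log2 ratios and a probability of a positive ratio, a score from 0 to 1.

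Probe sets were named from the deposited descriptions through RefSeq (GRCz12tu, names and gene order only): 2731 of 15502 non-control probe sets had 1 name, 1 had several and 12770 had none. No beta globin sequence is shown. Values were quantile normalised, and those whose mean fell below the 25th percentile (0.62) were dropped, leaving 11626. limma 3.58.1 (R 4.3.3) fitted 6 group means on 18 arrays with a prior variance that follows intensity (degrees of freedom: 12 residual, 6.24 prior). Contrasts were the morphant difference at each time and on average, changes between times, and the change of the difference with time. P-values were adjusted over all tested probe sets. Arrays have no counts, and the number of arrays limits the precision. The script was tested on simulated data.

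Named were all probe sets of the 4 genes, up to 6 genes per list by size of the average difference, and the 3 most alike genes per member (not for hbbe1.1, whose brightest probe set was fixed by normalisation). Marker genes past the threshold were named too. Members and lists were chosen with earlier results of these data known, so the hbbe3 difference at 60 h is not independent support. Alternatives were other scalings, filters and variance models, fits by time, a replicate block, each array left out, and, chosen after seeing the data, leaving out the 2 dimmest arrays.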

Additional observations from a re-analysis of the deposited data

Results flagged for a closer look

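The difference between morphants and controls for hbbe3 (DrAffx.2.19.S1_at) was larger at 60 h than at 36 h by 1.58 ± 0.21 on the log2 scale (limma adjusted p = 0.00615), a difference between times that was itself tested. This contrast was not tested under the alternatives. The joint test over the 3 times (limma adjusted p = 0.0179) was, and it was lost on deposited values and on median-centred values. It was also lost without the intensity trend and without any 1 of several arrays. All 3 morphant arrays of 60 h lay above all 3 control arrays, while the arrays of 36 h overlapped. After normalisation 20.2% of all tested probe sets were without overlap at 60 h and 13.9% at 36 h.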

How the results depend on the processing

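Of 1646 values of beta globin probe sets under alternatives, 1603 kept their side of the threshold and any called direction, 25 lost a call, 16 gained one and 2 reversed. Another 43, counted among the first, changed sign without a call. The 1603 include values that were uncalled in the main fit and stayed so. Among them are differences at 48 h and 60 h that normalisation fixed at 0 for the brightest probe set. Others come from fits that left out an array outside the comparison. How many of the 1646 started as calls was not counted, so the 1603 do not measure how well calls held. The 2 reversals, both from 48 to 60 h in controls on deposited values, were hbbe2 (-0.55) and hbba1 (-1.66). Counts of the 6 probe sets called changed as follows. On deposited values the average difference gave 0, the joint test over times 0, the morphant change from 36 to 48 h 1 and that from 48 to 60 h 2. On median-centred values the difference at 60 h gave 0, the average 0, the joint test 0, the control change from 36 to 48 h 1 and the morphant one 1. Without the intensity trend the average gave 1, the joint test 0 and the morphant change from 36 to 48 h 1. The difference at 48 h gave 1 in the fit of its 6 arrays and without the 2 dimmest arrays, and without these the morphant change from 48 to 60 h gave 2. The cause was not tested.

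With each array left out in turn, the count was 0 to 1 for the differences at 36 h and 48 h, 1 to 2 at 60 h, 2 for the average and 0 to 1 for the joint test. In controls it was 2, 3 to 4 and 3 for 36 to 48 h, 48 to 60 h and 36 to 60 h, and in morphants 1 to 2, 0 to 1 and 3. Of the 15 pairs, 5 to 9 were called. Over all probe sets, leaving out arrays gave 12 to 293 calls at 36 h, 21 to 170 at 48 h, 10 to 699 at 60 h and 231 to 1551 on average. For a check of pairing, the group mean of each probe set was subtracted from the normalised values. These deviations correlated between same-numbered arrays of a time with r from 0.10 to 0.27, except -0.06 for number 2 at 60 h. In every other case the deviations of a control array correlated best with those of the morphant array of its own number. The labels give no pairing and the main fit did not use the numbers, so spread shared by number stayed in its error. As a block in limma the number was shared across all times, so no limma fit paired arrays within a time. The replicate block changed no call of a beta globin probe set (hbbe3 at 60 h 1.50, limma adjusted p = 1.91e-04) and gave 10 called pairs, among them hbbe2 minus hbba1 (0.64, exact sign-flip permutation adjusted p = 0.0391 against 0.115). It also gained sptb on average (0.48, limma adjusted p = 0.0444). Over all probe sets the blocked fit called 988 against 559 on average, 113 against 66 at 48 h, 7 against 3 in the joint test and 225 against 111 for morphants from 48 to 60 h. The deposited values gave 0 calls against 21 at 36 h, 5 against 66 at 48 h, 1 against 107 at 60 h, 6 on average, 0 in the joint test, 1657 against 2625 and 9487 against 3073 in controls for the first and second step, and 88 against 1824, 202 and, from 36 to 60 h, 166 against 1376 in morphants. Median-centred values gave 37 at 48 h, 63 at 60 h, 277 on average and 51 for the morphants' second step. Probe sets at or over the median gave 21 at 48 h, 1 in the joint test and 63 for that step. Without the intensity trend there were 9 at 36 h, 37 at 60 h and 0 in the joint test. Fits by time gave 0, 361 and 34. Without the 2 dimmest arrays there were 221 at 48 h, 7 in the joint test and 2891, 601 and 2196 for the morphants' changes. Brightness near the array's top limits hbbe1.1. Dimness limits hbba1, as does a probe set of the kind that detects several near-identical transcripts. For hbbe3, which was bright at 36 h, an effect of brightness on its difference was not tested.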
